A study of Mus musculus with 12 samples.

Results

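The Cyp2a family of mouse liver cytochrome P450 enzymes was examined through its 4 genes Cyp2a4, Cyp2a5, Cyp2a12 and Cyp2a22, taken by gene symbol from the 22322 symbols of the expression tables. They held 6 of the 46585 transcript rows, since Cyp2a5 has 3 rows and each other gene has 1. The family was chosen by measured values, since Cyp2a5 and Cyp2a4 stood among the largest genotype differences in these same samples, and Cyp2a12 and Cyp2a22 came with the family name. The levels and differences of the 4 genes are therefore given as a description with their errors and without a test, and tests are kept for genes outside the family. Liver RNA was sequenced from C57BL/6 mice aged 8 weeks in 4 groups with 3 libraries each, which were wild type (WT) and a liver-specific knockout of Bmal1 (KO) at circadian time 0 h (CT0) and 12 h (CT12), after 2 days in darkness. The sample titles count from CT, whereas the sample descriptions write ZT for the same hours. According to the study's methods the mice were males, WT was Bmal1 flox/flox, and KO mice were bred from that line and one with CRE under a liver-specific promoter, which removes the exons for the DNA-binding domain of BMAL1 in liver. The promoter is not named and no CRE is stated for WT, so effects of CRE itself and of the loss of BMAL1 cannot be told apart. The labels' treatment protocol counts 2 mice for each genotype at each time whereas the titles number 3 replicates and the study's methods count as many mice of each genotype. Whether each library came from its own mouse is thus not settled by the sources, and p-values may in part measure technical spread.

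Cytochrome P450 enzymes of this family are haem proteins of the endoplasmic reticulum that hydroxylate drugs, nicotine-like compounds and steroids with electrons delivered by P450 reductase, the product of Por. Cyp2a5 encodes the coumarin hydroxylase of mouse liver, the counterpart of human CYP2A6, and is found in the hepatocytes near the central vein. Cyp2a4 encodes a close relative that hydroxylates testosterone and is known for higher expression in female than in male liver. Cyp2a12 encodes a steroid hydroxylase of liver, and Cyp2a22 is the least studied member. The circadian output factors Dbp, Tef and Hlf of the PAR bZIP class, the nuclear receptors CAR (Nr1i3) and HNF4A, and NRF2 (Nfe2l2) are known as regulators of Cyp2a5 or its relatives. Because RNA of whole liver was measured, fewer cells expressing a gene and less of its RNA per cell cannot be told apart.

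All 4 genes lie on chromosome 7 within a cluster of Cyp2 genes. On NCBIM37 (mm9), Cyp2a4 (ENSMUSG00000074254) spans chr7:27092209-27100107 on the plus strand, Cyp2a5 (ENSMUSG00000005547) spans chr7:27620324-27628567 on the plus strand, Cyp2a22 (ENSMUSG00000091867) spans chr7:27716650-27724405 on the minus strand and Cyp2a12 (ENSMUSG00000060407) spans chr7:27814109-27821826 on the plus strand. The promoter windows are shown because the genes split into a pair that differed between groups and a pair that hardly did. Each window runs from 250 bases before to 50 bases after the RefSeq start (GRCm38.p6 table). Each matched chromosome 7 of NCBIM37, the only chromosome searched, exactly at 1 place. The places were chr7:27091961-27092260 (plus) for Cyp2a4, chr7:27620108-27620407 (plus) for Cyp2a5, chr7:27813859-27814158 (plus) for Cyp2a12 and chr7:27724356-27724655 (minus) for Cyp2a22. Capitals mark the motif letters found by the search described after them.
Cyp2a4: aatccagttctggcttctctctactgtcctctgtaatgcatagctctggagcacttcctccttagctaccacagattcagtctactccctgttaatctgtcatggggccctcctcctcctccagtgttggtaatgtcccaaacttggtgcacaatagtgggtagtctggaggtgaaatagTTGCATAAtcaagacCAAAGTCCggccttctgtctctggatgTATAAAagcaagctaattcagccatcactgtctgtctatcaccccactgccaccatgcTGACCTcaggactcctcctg
Cyp2a5: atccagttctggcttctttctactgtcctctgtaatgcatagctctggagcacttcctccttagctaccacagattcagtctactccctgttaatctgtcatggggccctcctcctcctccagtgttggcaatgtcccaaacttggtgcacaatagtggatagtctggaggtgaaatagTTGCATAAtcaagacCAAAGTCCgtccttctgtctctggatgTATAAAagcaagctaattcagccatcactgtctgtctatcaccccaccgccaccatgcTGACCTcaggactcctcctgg
Cyp2a12: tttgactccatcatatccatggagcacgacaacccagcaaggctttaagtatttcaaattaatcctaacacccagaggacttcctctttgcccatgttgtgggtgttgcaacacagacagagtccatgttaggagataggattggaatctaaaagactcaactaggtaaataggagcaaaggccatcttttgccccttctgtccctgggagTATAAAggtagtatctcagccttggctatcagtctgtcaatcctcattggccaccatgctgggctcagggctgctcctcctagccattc
Cyp2a22: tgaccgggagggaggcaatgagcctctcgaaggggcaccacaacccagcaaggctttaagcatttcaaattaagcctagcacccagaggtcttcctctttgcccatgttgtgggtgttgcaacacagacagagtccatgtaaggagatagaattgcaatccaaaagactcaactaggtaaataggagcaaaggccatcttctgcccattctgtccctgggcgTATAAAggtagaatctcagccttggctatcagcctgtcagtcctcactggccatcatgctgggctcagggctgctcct

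The windows of Cyp2a4 and Cyp2a5 were 97.7% identical, with 5 mismatches and 2 gap columns in the alignment. Those of Cyp2a12 and Cyp2a22 were 84.2% identical, and identity between the pairs was 53.4% to 55.5%. Motifs were searched on both strands, and the octamer TTGCATAA and the octamer CAAAGTCC were chosen after the windows had been read. TTGCATAA, of a kind bound by PAR bZIP and C/EBP proteins, began at -70 in Cyp2a4 and at -71 in Cyp2a5, and 0.743% of 32851 mouse promoter windows held it. CAAAGTCC, of a kind bound by HNF4A, began at -55 and -56 in the same genes, against 1.42% of all windows. AGGTCA, part of many nuclear receptor sites, was read on the opposite strand (TGACCT) at +31 and +30 in Cyp2a4 and Cyp2a5, against 16.3% of all windows. TATAAA stood at -28, -29, -39 and -28 in Cyp2a4, Cyp2a5, Cyp2a12 and Cyp2a22, against 13.6% of all windows. The E-box CACGTG (7.15% of all windows), the D-box letters TTACGTAA (0.119%) and TTATGTAA (0.938%), and TTGCGCAA (0.183%) occurred in none of the 4 windows. TTGCATAA and CAAAGTCC occurred in neither Cyp2a12 nor Cyp2a22. The searched motifs do not overlap in these windows, and a match or its absence describes letters and not binding.

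The coding sequences form the same pairs. Cyp2a4 and Cyp2a5 were 98.5% identical over 1485 bases, with 23 mismatches and a longest identical run of 216 bases. Cyp2a12 and Cyp2a22 were 97.0% identical over 1479 bases, with 45 mismatches and a longest identical run of 206 bases. Identity between the pairs was 75.02% to 76.31%. The stretch of 90 bases below, coding positions 580 to 669 in the reference transcripts, is shown because it separates Cyp2a4 from Cyp2a5 most densely, and capitals mark its 5 differences.
Cyp2a4: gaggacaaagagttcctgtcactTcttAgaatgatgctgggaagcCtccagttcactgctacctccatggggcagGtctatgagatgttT
Cyp2a5: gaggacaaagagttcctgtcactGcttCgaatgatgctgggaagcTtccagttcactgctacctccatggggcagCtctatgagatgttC

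The tables held RPKM, reads scaled to transcript length and to the depth of the library, so levels can be set side by side between genes. The depth recovered from the smallest steps of the values was 11460000 to 19020000 reads per library, highest in WT at CT0 (16900000 to 19020000 reads). Pearson's r between libraries of a group, across genes, was 0.980 to 0.990, and genes are not independent replicates. Arntl, which encodes BMAL1, was at 16.35, 15.7 and 15.71 RPKM in WT at CT0 and at 5.92, 5.73 and 7.45 RPKM in KO at CT0. At CT12 Arntl was at 1.26, 0.68 and 1.21 RPKM in WT and at 4.37, 3.59 and 4.01 RPKM in KO. It was thus lower in KO at CT0 and higher in KO at CT12, and since its row covers the whole transcript it does not measure the deletion alone. The hepatocyte markers Alb, Apoa1, Ttr, Tat, Serpina1a and Hnf4a were detected in every group. Their summed level was 42960 to 48200 RPKM in WT and 26660 to 31810 RPKM in KO at CT0, and 35960 to 43740 RPKM in WT and 23500 to 26860 RPKM in KO at CT12. Of these 6 markers Alb, encoding serum albumin, was lower in KO at both times (log2 -0.93 and -1.05, adjusted p = 0.0045 and 0.000299, limma), and the other 5 did not pass the test at either time. Of all genes tested, 1.86% were called at CT0 and 10.5% at CT12. Both calls of Alb were lost without a filter (adjusted p = 0.225 and 0.068) and under quantile normalization, which sets the most abundant gene equal in every library. The part of this in the results was not tested.

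Cyp2a5 had the highest level of the family in WT at CT12. Its full-length row (ENSMUST00000005685, 2013 bases) was at 57.8, 94.0 and 75.4 RPKM in WT at CT0 and at 575, 414 and 494 RPKM in WT at CT12. In KO it was at 40.3, 23.0 and 34.2 RPKM at CT0 and at 36.8, 33.3 and 29.3 RPKM at CT12. Every WT library at CT12 lay above every other library, every WT library at CT0 lay above every KO library, and the KO libraries of the 2 times overlapped. Group means were 75.7 ± 18.1 RPKM in WT at CT0, 494.3 ± 80.7 in WT at CT12, 32.5 ± 8.77 in KO at CT0 and 33.1 ± 3.75 in KO at CT12 (SD, n = 3 each). The mean in WT was 6.53 times higher at CT12 than at CT0, with single library pairs between 4.40 and 9.95 times. WT exceeded KO 2.33 times at CT0 (pairs 1.44 to 4.09) and 14.9 times at CT12 (pairs 11.2 to 19.6). Within KO the ratio of CT12 to CT0 was 1.02 (pairs 0.728 to 1.60). These values rested on 659 to 18668 reads per library.

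Cyp2a4 followed the same order of groups at a level of 6.59% to 11.8% of Cyp2a5. Its row (ENSMUST00000098657, 1717 bases) was at 6.81, 10.1 and 7.10 RPKM in WT at CT0 and at 56.9, 38.5 and 57.5 RPKM in WT at CT12. The KO libraries were at 4.06, 1.92 and 2.44 RPKM at CT0 and at 2.42, 3.39 and 2.60 RPKM at CT12. WT at CT12 was again apart from all other libraries, WT at CT0 lay above both KO groups, and the KO groups overlapped. Group means were 8.00 ± 1.81 RPKM in WT at CT0, 51.0 ± 10.8 in WT at CT12, 2.81 ± 1.12 in KO at CT0 and 2.80 ± 0.513 in KO at CT12 (SD, n = 3 each). WT rose 6.38 times from CT0 to CT12 in its mean (pairs 3.83 to 8.45), and WT exceeded KO 2.85 times at CT0 (pairs 1.68 to 5.24) and 18.2 times at CT12 (pairs 11.4 to 23.7). The KO values came from 47 to 104 reads per library, against 972 to 1575 reads in WT at CT12.

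Cyp2a12 stayed at a high and nearly even level. Its row (ENSMUST00000075552, 1656 bases) was at 254, 236 and 250 RPKM in WT at CT0 and at 294, 231 and 267 RPKM in WT at CT12. The KO libraries were at 250, 255 and 289 RPKM at CT0 and at 200.2, 243 and 296 RPKM at CT12. All 4 groups overlapped. The group means were 246.9 ± 9.81, 264.2 ± 31.5, 264.8 ± 21.5 and 246.5 ± 48.0 RPKM for WT at CT0, WT at CT12, KO at CT0 and KO at CT12 (SD, n = 3 each), so no 2 neighbours in this order of levels differed beyond their spread.

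Cyp2a22 had a low level in every group. Its row (ENSMUST00000170227, 2226 bases) was at 1.81, 2.98 and 2.13 RPKM in WT at CT0 and at 1.73, 1.68 and 5.26 RPKM in WT at CT12. KO libraries were at 3.01, 2.40 and 2.43 RPKM at CT0 and at 1.53, 1.83 and 3.95 RPKM at CT12. The third library was the highest of its group at CT12 in both genotypes, and all 4 groups overlapped. The group means lay between 2.30 and 2.89 RPKM and rested on 49 to 157 reads per library.

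Per length, the order of the family depended on the group. In WT at CT0 Cyp2a12 (236 to 254 RPKM) was above Cyp2a5 (57.8 to 94.0 RPKM), whereas in WT at CT12 Cyp2a5 (414 to 575 RPKM) was above Cyp2a12 (231 to 294 RPKM), without overlap at either time. In KO, Cyp2a12 was above Cyp2a5 at both times, and Cyp2a4 (1.92 to 4.06 RPKM) overlapped Cyp2a22 (1.53 to 3.95 RPKM).

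**Figure D1:**
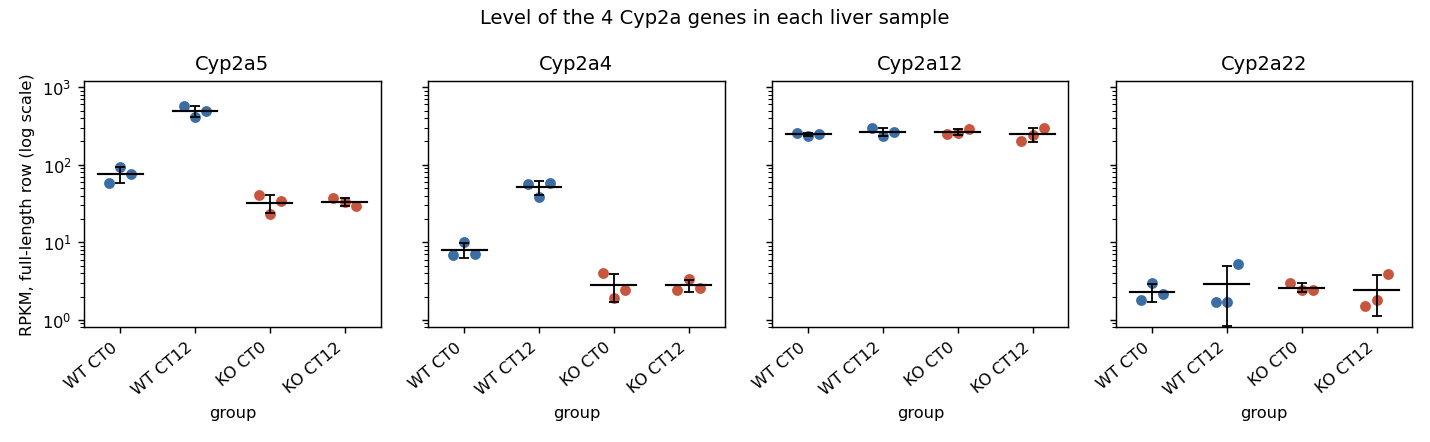
RPKM of the full-length row of each Cyp2a gene (log axis) in the 4 groups, with 1 point per library, the mean as a line and the SD as the error bar (n = 3). Cyp2a5 and Cyp2a4 stand highest in WT at CT12, at 414 to 575 and 38.5 to 57.5 RPKM, while the 4 groups overlap within Cyp2a12 and within Cyp2a22.

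Differences were estimated on the log2(RPKM + 1) scale, which understates the change of low genes, in 1 fit over all 12 libraries. A gene entered with its transcript row of highest mean, which for Cyp2a5 was a short row of 442 bases (ENSMUST00000170631) at 32.6 to 879 RPKM. All 4 genes passed the filter of a group mean of at least 1 RPKM, as did 10799 genes in all. Between KO and WT at CT0, the log2 difference was -1.33 ± 0.20 for Cyp2a5, -1.26 ± 0.22 for Cyp2a4, 0.10 ± 0.13 for Cyp2a12 and 0.14 ± 0.32 for Cyp2a22 (SE).

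Between KO and WT at CT12 the log2 difference was -3.89 ± 0.20 for Cyp2a5 and -3.76 ± 0.22 for Cyp2a4. It was -0.11 ± 0.13 for Cyp2a12 and -0.12 ± 0.32 for Cyp2a22 (SE). By size of this difference Cyp2a5 ranked 4 and Cyp2a4 ranked 6 among the 10799 genes, and this contrast is the one the choice of the family rested on.

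From CT0 to CT12 in WT, the log2 difference was 2.71 for Cyp2a5, 2.53 for Cyp2a4, 0.09 for Cyp2a12 and 0.13 for Cyp2a22. In KO the same difference was 0.15 for Cyp2a5, 0.03 for Cyp2a4, -0.12 for Cyp2a12 and -0.13 for Cyp2a22. The genotype by time interaction was -2.56 ± 0.29 for Cyp2a5, -2.50 ± 0.31 for Cyp2a4, -0.21 ± 0.19 for Cyp2a12 and -0.26 ± 0.45 for Cyp2a22 (SE). The comparisons share groups, so their values for a gene are not independent of one another.

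The other rows of Cyp2a5 gave nearly the same values. Between KO and WT at CT12 the full-length row differed by log2 -3.85 and the row of 539 bases (ENSMUST00000169007) by -3.84, and the interaction was -2.65 and -2.67. At CT0 they differed by -1.20 and -1.17. In RPKM the row of 442 bases ran at 1.37 to 1.57 times and the row of 539 bases at 1.05 to 1.26 times the full-length row in the 12 libraries. Rows of 1 gene can count the same reads and are not separate evidence.

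**Figure D2:**
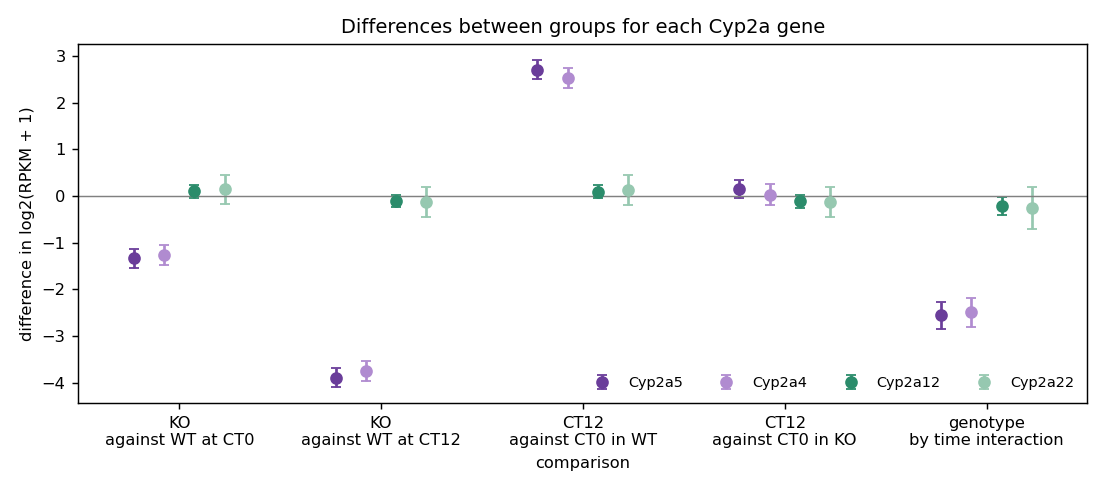
Difference in log2(RPKM + 1) for each Cyp2a gene in the 5 comparisons, with the SE of the fit as the error bar and Cyp2a5 represented by its row of 442 bases. Cyp2a5 and Cyp2a4 lie together near -3.8 for KO against WT at CT12 (-3.89 and -3.76), while Cyp2a12 and Cyp2a22 lie within 0.27 of 0 throughout.

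Because the genes of a pair are near copies, how far reads can separate them was measured on the reference transcripts. Of the 1668 words of 50 bases in Cyp2a4, 609 (36.5%) occurred exactly in Cyp2a5, and these are 31.0% of the words of Cyp2a5. With words of 36, 75 and 100 bases the share of Cyp2a4 found in Cyp2a5 was 50.2%, 21.2% and 11.3%. Of Cyp2a22, 20.6% of the 50-base words occurred in Cyp2a12, and of Cyp2a12, 27.9% occurred in Cyp2a22. No word of these lengths was shared between the 2 pairs or with any other protein-coding gene. The read length and the handling of reads with several matches are not given in the sources used here, so the levels of Cyp2a4 and Cyp2a22 in particular are uncertain.

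In the genome, 44.1% of the 50-base words of Cyp2a5 also lay elsewhere in chr7:26500001-28500000. Of the 1964 words, 539 recurred in a stretch of 4.82 kb at chr7:27733013-27737835 that holds no annotated gene in the GENCODE release used, between Cyp2a22 and Cyp2a12. RefSeq (GRCm38.p6) places a pseudogene, Cyp2a21-ps, between those genes. Another 122 words recurred at chr7:27092178-27100371, at and beyond the ends of the annotated Cyp2a4. For Cyp2a4, 30.1% of the words lay elsewhere in the same window, 178 of them in the stretch next to Cyp2a22. How reads with several matches were treated for Cyp2a5 was not tested.

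The level of Cyp2a4 as a percentage of Cyp2a5 (full-length row) was lower on average in KO than in WT and hardly differed between times. Group means were 10.6% ± 1.2% in WT at CT0 and 10.3% ± 1.2% in WT at CT12. In KO they were 8.5% ± 1.5% at CT0 and 8.5% ± 1.8% at CT12 (SD, n = 3 each). The single libraries were at 11.8%, 10.7% and 9.42% in WT at CT0 and at 9.89%, 9.32% and 11.6% in WT at CT12. The KO libraries were at 10.1%, 8.36% and 7.12% at CT0 and at 6.59%, 10.2% and 8.87% at CT12. The groups overlapped, although Cyp2a5 itself ran from 23.0 to 575 RPKM over the same libraries. Cyp2a22 stood at 0.587% to 1.97% of Cyp2a12. Whether reads of the more abundant gene of a pair were counted on the less abundant gene was not tested.

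**Figure D3:**
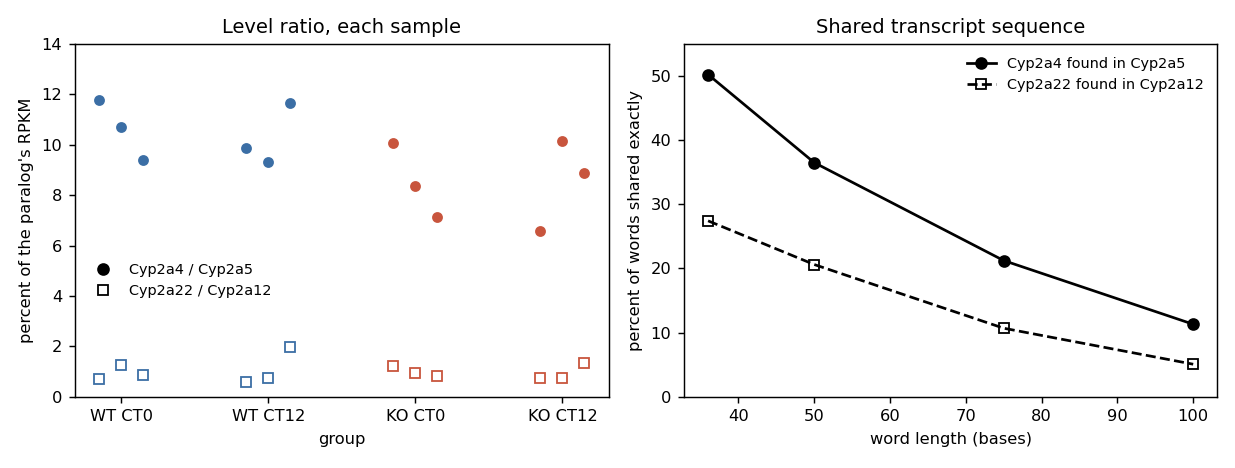
Left, the RPKM of Cyp2a4 as a percentage of Cyp2a5 (filled circles) and of Cyp2a22 as a percentage of Cyp2a12 (open squares), with 1 point per library (WT blue, KO red). Right, the percentage of words of 36, 50, 75 and 100 bases that the first transcript shares exactly with the second. Cyp2a4 stays at 6.59% to 11.8% of Cyp2a5 in all 12 libraries, and its shared words fall from 50.2% at 36 bases to 11.3% at 100 bases.

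Genes beside the family were taken within 200 kb of a member in the annotation, which lists 21 of them. The tables held 16 and 9 passed the filter. In KO against WT, limma called 0 of the 9 at CT0 and 1 at CT12, where 1.86% and 10.5% of all genes tested were called. At CT0, 1 of the 9 was at an unadjusted p under 0.05, against 1529 of all 10799 genes. The median log2 difference at CT12 was 0.01, against 0.08 over all genes. The one called was Cyp2g1, a P450 known from olfactory tissue that ends 14108 bases before the start of Cyp2a5. Cyp2g1 was at 0.0857, 0.539 and 0.735 RPKM in WT at CT0 and at 1.84, 1.51 and 1.01 RPKM in WT at CT12. In KO it lay between 0.0749 and 0.553 RPKM, below every WT library at CT12. Its log2 difference at CT12 was -0.88 ± 0.20 (SE), given without a p because Cyp2g1 passed the filter on low values through WT at CT12 alone, the group in which it is high. Cyp2f2, a P450 of periportal hepatocytes that lies beyond Cyp2a12, differed by -0.09 at CT0 and -0.03 at CT12 (adjusted p = 0.79 and 0.917, limma). Cyp2b9, a female-predominant P450, differed by -2.81 at CT0 and -2.40 at CT12 with an SE of 0.86 (adjusted p = 0.142 and 0.104, limma), and its libraries ran from 0.0739 to 45.9 RPKM.

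**Figure D4:**
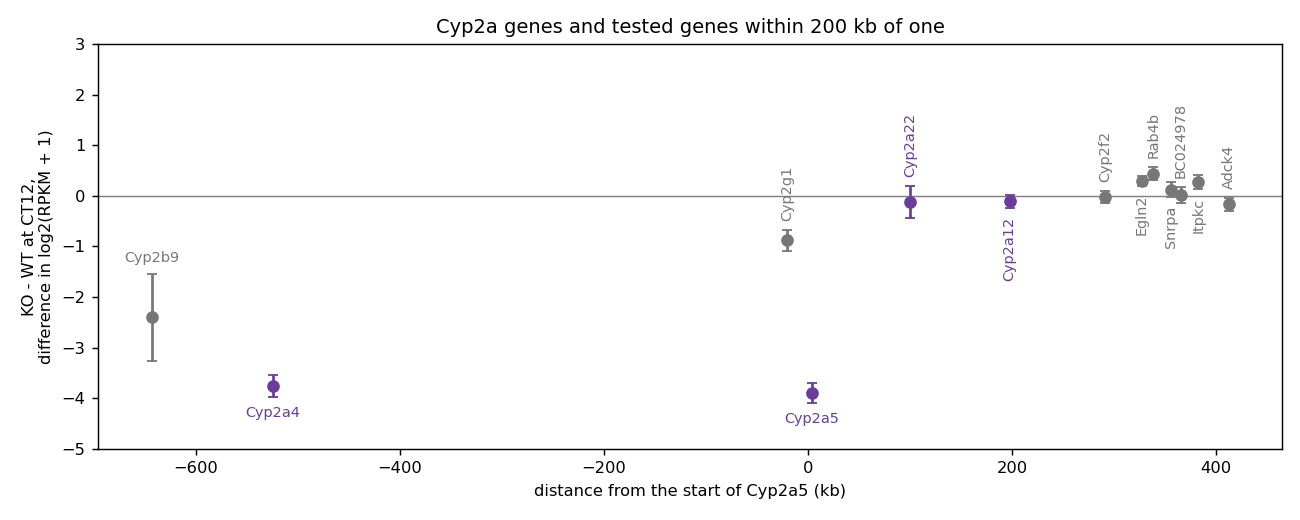
KO against WT at CT12, as the difference in log2(RPKM + 1) with its SE, for the 4 Cyp2a genes (purple) and the 9 tested genes within 200 kb of one (grey), against the distance of each gene's middle from the start of Cyp2a5 in kb. Cyp2a4 and Cyp2a5 stand near -3.8 (-3.76 and -3.89) at separate places of the cluster, with Cyp2g1 at -0.88 beside Cyp2a5 and Cyp2a12 and Cyp2a22 near 0.

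Regulators known for Cyp2a genes were described by a list of 22 transcription factors and cofactors, all of which passed the filter. In KO against WT, 1 was higher and 3 were lower at CT0, and 1 was higher and 5 were lower at CT12, against 1.86% and 10.5% of all genes called. The 1 higher at CT12 was Stat5b (log2 0.63, adjusted p = 0.0043, limma). Cebpa, which encodes a C/EBP protein, was among the 5 lower at CT12 (log2 -0.41, adjusted p = 0.027, limma). At CT0 they differed by 0.04 and -0.28 (adjusted p = 0.914 and 0.234). These calls were not followed through the alternatives. The median log2 difference of the list was -0.17 at CT0 and -0.13 at CT12, against 0.01 and 0.08 over all genes. From CT0 to CT12, 6 were higher and 3 lower in WT, and 2 were higher and 0 lower in KO, against 11.6% and 2.43% of all genes called.

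Of the PAR bZIP activators, Dbp moved most. It was at 0.661, 1.25 and 1.18 RPKM in WT at CT0 and at 21.7, 33.4 and 17.3 RPKM in WT at CT12. In KO it was at 1.51, 1.84 and 1.63 RPKM at CT0 and at 3.29, 8.11 and 4.66 RPKM at CT12. WT at CT12 lay above all other libraries, as for Cyp2a5, although Dbp in KO was above WT at CT0. The log2 difference of KO to WT was -2.01 ± 0.27 at CT12 (SE, adjusted p = 0.000487) and 0.40 at CT0 (adjusted p = 0.548, limma), and the interaction, called for 1.49% of all genes, was -2.41 (adjusted p = 0.00775, limma).

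Tef was higher in KO at CT0 (log2 0.94 ± 0.11, SE, adjusted p = 0.000938) and lower in KO at CT12 (-0.94 ± 0.11, adjusted p = 0.000152, limma). Its libraries were at 7.69 to 9.37 RPKM in WT and 15.5 to 19.6 RPKM in KO at CT0, and at 45.0 to 46.9 RPKM in WT and 21.4 to 26.3 RPKM in KO at CT12. Hlf, the remaining PAR bZIP factor, did not pass the test between genotypes, with log2 -0.50 at CT12 (adjusted p = 0.0835, limma) and 0.07 at CT0 (adjusted p = 0.901). Nfil3, a repressor that binds the same D-box sites, differed by -0.66 at CT0 (adjusted p = 0.047, limma), a call lost under 14 of 20 alternatives with adjusted p up to 0.167, and by 0.19 at CT12 (adjusted p = 0.478).

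Among the nuclear receptors, Nr1i3 (CAR) was at 121, 117 and 147 RPKM in WT and at 56.9, 68.0 and 92.1 RPKM in KO at CT12, without overlap. The log2 difference was -0.84 ± 0.20 (SE, adjusted p = 0.0219, limma), and the call was lost without WT CT12 replicate 3, KO CT12 replicate 1 or KO CT12 replicate 2, with adjusted p up to 0.0897. At CT0 Nr1i3 differed by -0.69 (adjusted p = 0.126). Ppara, the fatty acid receptor, was lower in KO at CT12 (log2 -1.04 ± 0.12, SE, adjusted p = 0.000149, limma). At CT0 it differed by -0.62 (adjusted p = 0.0238), a call lost without any 1 of WT CT0 replicates 1, 2 and 3 and KO CT0 replicates 1 and 3, with adjusted p up to 0.0966. Hnf4a differed by -0.22 and -0.09 at CT0 and CT12 (adjusted p = 0.525 and 0.76), and Nfe2l2, which encodes NRF2, by 0.30 and 0.16 (adjusted p = 0.24 and 0.426). Foxa3, a liver-enriched forkhead factor, differed by -0.94 at CT0 (adjusted p = 0.0474, limma), a call lost under 12 of 20 alternatives with adjusted p up to 0.158.

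**Figure D5:**
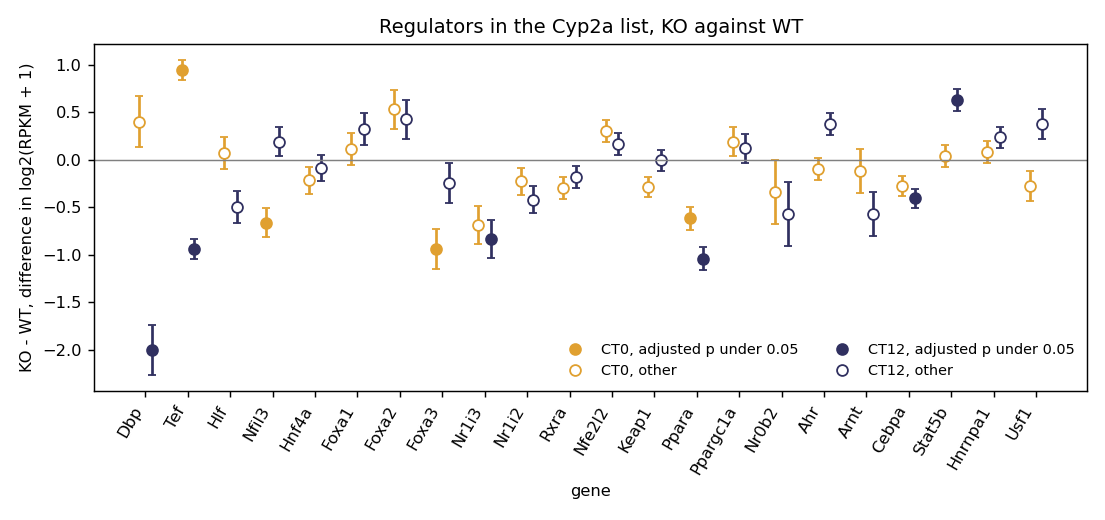
Difference between KO and WT in log2(RPKM + 1) with its SE for the 22 listed regulators at CT0 (yellow) and CT12 (dark blue), with filled points for an adjusted p under 0.05 (limma). Dbp (-2.01), Ppara (-1.04) and Tef (-0.94) are the lowest filled points at CT12, and Tef (0.94) is the filled point above 0 at CT0.

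P450 activity needs electrons and haem, and 15 genes of these functions were tested. In KO against WT, 0 were higher and 1 was lower at CT0, and 2 were higher and 3 lower at CT12 (1.86% and 10.5% of all genes called), with median log2 differences of 0.00 and -0.03 against 0.01 and 0.08 over all genes. Por, the electron donor of all microsomal P450 enzymes, was at 40.1, 73.8 and 52.9 RPKM in WT at CT0 and at 207, 171 and 207 RPKM in WT at CT12. In KO it was at 47.1, 35.8 and 43.1 RPKM at CT0 and at 68.3, 46.4 and 47.4 RPKM at CT12. WT at CT12 again stood alone, as for Cyp2a5. Por was lower in KO at CT12 (log2 -1.85 ± 0.21, SE, adjusted p = 0.000134, limma) and differed by -0.36 at CT0 (adjusted p = 0.471). Its interaction was -1.49 (adjusted p = 0.0267), a call lost under 10 of 19 alternatives, with adjusted p up to 0.0737.

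Alas1, the rate-limiting enzyme of haem synthesis, differed between times in both genotypes. It was at 25.0 to 45.9 RPKM at CT0 and 380 to 679 RPKM at CT12 in WT, and at 28.2 to 81.9 RPKM at CT0 and 183 to 386 RPKM at CT12 in KO. The log2 difference of CT12 to CT0 was 3.95 in WT (adjusted p = 6.01e-05) and 2.39 in KO (adjusted p = 0.0117, limma). The call in KO was lost in a fit of the KO libraries alone (adjusted p = 0.0604). The KO and WT groups differed by 0.42 at CT0 and -1.14 at CT12 (adjusted p = 0.695 and 0.0853). Cyp2a5 and Alas1 are thus both higher at CT12 in WT, and in KO Alas1 rose while the 2 times of Cyp2a5 overlapped. Blvrb, a biliverdin reductase of haem breakdown, was lower in KO at CT12 (log2 -0.49, adjusted p = 0.006, limma). Its difference at CT0 was -0.50 (adjusted p = 0.0211), a call lost without any 1 of WT CT0 replicates 2 and 3 and KO CT0 replicates 1 and 3 and in a fit of the CT0 libraries alone, with adjusted p up to 0.0957. Uros, an enzyme of haem synthesis, was higher in KO than in WT at CT12 (log2 0.54, adjusted p = 0.019, limma). The call was lost without any 1 of WT CT12 replicates 2 and 3 and KO CT12 replicates 2 and 3. Hmox1, the haem oxygenase, differed by 0.47 between KO and WT at CT12 (adjusted p = 0.0465, limma), a call lost under 14 of 20 alternatives.

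Other genes known as targets of CAR were described by a list. Of 17 tested, 6 were higher and 0 lower in KO at CT0, and 6 were higher and 2 lower at CT12, where 1.86% and 10.5% of all genes were called. The median log2 difference of the list was 0.34 at CT0 and 0.24 at CT12, against 0.01 and 0.08 over all genes. Cyp2b10, the gene most used as a CAR readout, was at 0.988, 3.98 and 1.07 RPKM in WT and at 24.1, 12.9 and 11.4 RPKM in KO at CT0. At CT12 it was at 1.84, 0.598 and 3.85 RPKM in WT and at 11.5, 6.76 and 20.4 RPKM in KO, again without overlap. The log2 differences were 2.57 (adjusted p = 0.0215) and 2.187 (adjusted p = 0.013, limma). The first was lost without a filter and without WT CT0 replicate 1, WT CT0 replicate 3 or KO CT0 replicate 1, and the second without WT CT12 replicate 2 or KO CT12 replicate 3, with adjusted p up to 0.0864 and 0.0552. Cyp2c55 (log2 3.36 and 3.30 at CT0 and CT12) and the glutathione transferase Gstm3 (3.14 and 3.54) were higher at both times, with adjusted p between 2.38e-05 and 0.00135 (limma). Gsta2, another glutathione transferase, was lower in KO at CT12 (log2 -1.44, adjusted p = 0.0102, limma) and differed by -1.19 at CT0 (adjusted p = 0.0751). Ugt2b34, a glucuronosyltransferase of a family of close copies, was the other one lower in KO at CT12 (log2 -0.48, adjusted p = 0.0107, limma), a call lost without WT CT12 replicate 3 (adjusted p = 0.0516). It was at 187, 172 and 204 RPKM in WT and at 131, 149 and 123 RPKM in KO at CT12, and differed by -0.05 at CT0 (adjusted p = 0.884). From CT0 to CT12 Ugt2b34 was higher in WT (log2 0.51, adjusted p = 0.0083) and differed by 0.08 in KO (adjusted p = 0.725), and its interaction was -0.43 (adjusted p = 0.219, limma).

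Since Cyp2a5 is expressed near the central vein and Cyp2a4 more in females, genes of liver zones and of sex bias were described too. Of 14 pericentral genes, 0 were higher and 1 lower in KO at CT0, and 2 were higher and 1 lower at CT12, beside 1.86% and 10.5% of all genes called. Glul, the glutamine synthetase of the innermost hepatocytes, differed by 0.08 and -0.08 at CT0 and CT12 (adjusted p = 0.874 and 0.824), and Cyp2e1, the ethanol-oxidising P450, by -0.25 and -0.28 (adjusted p = 0.651 and 0.431, limma). Aldh3a2, a fatty aldehyde dehydrogenase, was lower in KO at CT12 (log2 -2.001, adjusted p = 0.000323, limma). At CT0 it differed by -1.47 (adjusted p = 0.0125), a call lost without WT CT0 replicate 2, WT CT0 replicate 3 or KO CT0 replicate 3. Lgr5, a Wnt receptor component, was higher in KO at CT12 (log2 0.91, adjusted p = 0.00618, limma), and Lect2, a secreted hepatocyte factor, differed by 0.52 (adjusted p = 0.0416), a call lost under 9 of 20 alternatives. Of 13 periportal genes 0 were called between KO and WT at either time by limma. At an unadjusted p under 0.05 there were 4 at CT0 and 2 at CT12, against 1529 and 2687 of all 10799 genes.

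Of 9 tested female-biased genes, 0 were called between KO and WT at CT0 by limma, and 0 were higher and 4 lower in KO at CT12. Of all genes tested, 1.86% were called at CT0 and 10.5% at CT12. At CT0, 5 of the 9 were at an unadjusted p under 0.05, against 1529 of all 10799 genes. The list had a median log2 difference of -0.66 at CT0 and -1.25 at CT12, against 0.01 and 0.08 over all genes. The summed level of the 16 listed genes with values was 88.58 to 175.5 RPKM in WT and 60.36 to 71.77 RPKM in KO at CT0. At CT12 the sum was 123.6 to 456.6 RPKM in WT and 56.52 to 152.7 RPKM in KO, with overlap. Acot3, an acyl-CoA thioesterase, was at 7.72, 3.45 and 12.8 RPKM in WT and at 0.112, 0.326 and 0.474 RPKM in KO at CT12 (log2 -2.65, adjusted p = 0.000582, limma). Cyp4a10, a fatty acid hydroxylase, and Cyp17a1, a steroid hydroxylase, differed by -2.07 and -1.60 (adjusted p = 0.0418 and 0.0478, limma), and each call was lost under 10 alternatives with adjusted p up to 0.158 and 0.163. Acot3 and Cyp4a10 are also known as targets of the receptor encoded by Ppara.

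Of 16 male-biased genes, 0 were higher and 2 lower in KO at CT0. At CT12, 2 were higher and 2 lower in KO, with 1.86% and 10.5% of all genes called at CT0 and CT12. Nat8, an acetyltransferase, was lower in KO at both times (log2 -2.07 and -2.50, adjusted p = 0.000229 and 1.22e-05, limma). Elovl3, a fatty acid elongase, and Hsd3b5, a steroid dehydrogenase, were higher in KO at CT12 (4.85 and 1.55, adjusted p = 1.59e-08 and 0.00583, limma). Cyp4a12a, a fatty acid hydroxylase, differed by -2.14 at CT0 (adjusted p = 0.0329), a call lost under 7 of 20 alternatives. The Y-linked genes Ddx3y, Eif2s3y, Kdm5d and Uty were detected in all 12 libraries, at 4.23 RPKM or more, and 0 of the 4 were called between KO and WT by limma. At an unadjusted p under 0.05 there were 0 at CT0 and 1 at CT12, against 1529 and 2687 of all 10799 genes.

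Markers of other liver cells were followed beside these results. None of the 6 Kupffer, 6 endothelial or 6 stellate cell markers tested was called between KO and WT at either time by limma, nor was the 1 lymphocyte marker tested. Of all genes tested, 1.86% were called at CT0 and 10.5% at CT12. At an unadjusted p under 0.05 there were 1 stellate marker at CT0, and 3 stellate markers and 1 endothelial marker at CT12. The same held for 1529 of all 10799 genes at CT0 and 2687 at CT12. Of 4 cholangiocyte markers Spp1 was higher in KO at both times (log2 1.16 and 1.56, adjusted p = 0.0238 and 0.000751, limma), the first lost without a filter and without any 1 of WT CT0 replicates 1 and 3 and KO CT0 replicates 2 and 3. The summed level of the cholangiocyte list was 27.2 to 64.8 RPKM in WT and 88.4 to 152 RPKM in KO, nearly all of it Spp1 (26.5 to 61.5 RPKM in WT and 87.0 to 148 RPKM in KO). Krt7 and Krt19 of that list differed by -0.17 and -0.03 at CT12 (adjusted p = 0.657 and 0.959, limma). The median log2 difference of the 4 tested markers was 0.36 at CT0 and 0.03 at CT12, against 0.01 and 0.08 over all genes. At an unadjusted p under 0.05 there was 1 of the 4 at each time. Of 5 erythroid markers 2 were higher in KO at CT12, Hba-a2 and Hbb-b2 (log2 1.19 and 1.22, adjusted p = 0.013 and 0.0198, limma). The call of Hbb-b2 was lost without any 1 of WT CT12 replicates 1 and 3 and KO CT12 replicates 1 and 2, with adjusted p up to 0.0756, and the list summed to 107 to 190 RPKM in WT and 245 to 306 RPKM in KO at that time. The share of these markers in the results was not tested.

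Genes with patterns most like the family were ranked by Pearson's r of log2(RPKM + 1) over the 12 libraries, as a description in which the 3 WT libraries at CT12 carry much of the range for Cyp2a5 and Cyp2a4. Cyp2a4 and Cyp2a5 themselves had an r of 0.995. Outside the family the genes nearest to Cyp2a5 were Tnnc1 (0.984), Homer2 (0.984), Pdxk (0.979), Lrp4 (0.966), Serpina6 (0.963), Pcsk4 (0.961), Abhd6 (0.957) and Abcb1a (0.956), and 48 genes exceeded 0.9. For Cyp2a4 they were Tnnc1 (0.989), Pdxk (0.976), Homer2 (0.974) and Serpina6 (0.973). Pdxk, the kinase of vitamin B6, had group means of 18.5 and 30.6 RPKM in WT and 14.5 and 12.8 RPKM in KO at CT0 and CT12. Serpina6, which encodes the carrier of corticosteroids in blood, had means of 76.8 and 185 RPKM in WT and 52.2 and 46.8 RPKM in KO, so its span was smaller than that of Cyp2a5. Tnnc1, a troponin, reached a mean of 1.42 RPKM in WT at CT12.

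For Cyp2a12 the nearest gene was Rbbp9 (r = 0.863), followed by Prex2 (0.856), Ndufa9 (0.830) and Slx1b (0.798). For Cyp2a22 it was Slc25a48 (0.851), followed by Ctnnbl1 (0.831), Pex19 (0.812) and Ehhadh (0.812). No gene exceeded 0.9 for either. The r between Cyp2a12 and Cyp2a22 was 0.425, and between the genes of different pairs it was 0.0805 to 0.154.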

How the data were processed

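The authors deposited RPKM values for 46585 Ensembl transcript rows in each of 12 libraries made from total liver RNA with a TruSeq kit. The submitters' processing notes name mm9, TopHat2 and bedtools 2.19.1 without their roles, and how reads with several matches were counted is not given in the sources used here. Replicates were not pooled. Transcript lengths, known for 95.5% of rows from GENCODE vM1 on NCBIM37, gave the depth from the steps of the low values, of which 94.6% to 95.6% were whole reads within 0.02.

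For each of 22322 symbols the row of highest mean was kept, and the 10799 genes whose mean reached 1 RPKM in any group were analysed as log2(RPKM + 1) with limma 3.58.1 in R 4.3.3 (lmFit, eBayes with trend, 4 group means, all 12 libraries). The Benjamini-Hochberg adjustment ran over all genes tested, and calls needed an adjusted p under 0.05. On simulated data the fit was tested with 200 changed genes. Sequences were read from the NCBIM37 genome, GENCODE vM1 transcripts and the RefSeq promoter table with Python 3.11.15, and aligned with Biopython 1.88.

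The family, the gene lists and the tests were chosen with earlier results of these data known. Named genes were a fixed set of known regulators and P450 genes, up to 4 genes of each list with the largest genotype differences among those called, and the genes of highest r with each member (8 for Cyp2a5, 4 for the others). Nfil3, Ugt2b34, Stat5b and Cebpa were added after their values were seen, and genes within 200 kb were taken by position. A called gene of the female-biased list is not reported here. Alternatives were a pseudocount of 0.1, other filters, quantile normalization, other transcript rows, a replicate block, fits of only the libraries compared and leaving out each library.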

Additional observations from a re-analysis of the deposited data

Results flagged for a closer look

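Outside the Cyp2a family, the genotype by time interaction of 5 listed genes passed the test, where 161 of all 10799 genes tested (1.49%) did. For these 5 the difference between KO and WT was thus not the same at CT0 and CT12 (log2 scale, limma, n = 3 per group). The interaction was 2.50 for Arntl (adjusted p = 7.17e-05), -2.41 for Dbp (adjusted p = 0.00775), -1.89 for Tef (adjusted p = 0.000135), -1.49 for Por (adjusted p = 0.0267) and 4.94 for Elovl3 (adjusted p = 7.46e-07, limma).

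Of the genes named for their likeness to Cyp2a5, 6 also had an interaction past the threshold. They were picked for following Cyp2a5 in these libraries, so passing the threshold was largely fixed by that choice and is no separate evidence. Their values are given as a description without a p. The interaction was -0.93 for Tnnc1, -0.88 for Pdxk, -0.69 for Homer2, -1.39 for Serpina6, -1.26 for Pcsk4 and -0.92 for Abcb1a. Tnnc1 and Abcb1a passed the filter on low values through WT at CT12 alone, where they are high. The threshold was missed under 14 of 18 alternatives for Abcb1a, 9 of 19 for Homer2, 5 of 18 for Tnnc1 and 1 of 19 for Serpina6. For Por it was missed under 10 of 19.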

How the results depend on the processing

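The differences of the 4 Cyp2a genes moved by less than 1 SD between replicates under every alternative run but one, the pseudocount of 0.1, which gave -4.13 for Cyp2a4 in KO against WT at CT12. With each library left out in turn, Cyp2a5 in that comparison ran from -4.02 to -3.77 and Cyp2a4 from -3.94 to -3.66, whereas Cyp2a12 (-0.25 to 0.03) and Cyp2a22 (-0.42 to 0.28) changed sign.

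The number of genes called was less stable, and the cause was not tested except that testing all transcript rows adds features. With all transcript rows it was 457 at CT0 and 2807 at CT12 for KO against WT, 3298 for time in WT, 741 for time in KO and 426 for the interaction. Without a filter it was 114 for KO against WT at CT0 and 161 for time in KO. A filter of 1 RPKM in every sample gave 117 at CT0. Fits of only the libraries compared gave 107 at CT0 and 26 for time in KO. With each library left out, the counts ran from 76 to 208 at CT0, 728 to 1279 at CT12, 660 to 1394 for time in WT, 65 to 260 for time in KO and 87 to 146 for the interaction. The lowest counts came without WT CT0 replicate 2, WT CT12 replicate 3, WT CT12 replicate 3, KO CT12 replicate 1 and WT CT0 replicate 2 in that order. Quantile normalization moved the share of calls that were higher from 66.6% to 52.0% for KO against WT at CT12, from 32.0% to 49.9% for time in WT and from 72.0% to 59.7% for the interaction. Of the values of named genes outside the family followed through the alternatives, 5475 kept their side of the threshold, 253 lost a call and 37 gained one. A value called neither in the main fit nor in the alternative was counted as kept even where its sign changed. The 5475 thus include values never called, and 253 set against 5475 understates the share of calls lost. The calls of Alb were lost without a filter and under quantile normalization.

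Libraries with the same replicate number did not deviate together, with correlations of -0.0665 to 0.139 over 18 pairs, and 6 of 12 libraries correlated best with their own number. With the number as a replicate block, 173 and 1075 genes were called for KO against WT at CT0 and CT12, 1198 for time in WT, 225 for time in KO and 128 for the interaction.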
